A study of Mus musculus with 160 samples.

Results

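The respiratory chain genes of the nuclear genome were followed across 5 tissues, 4 inbred mouse strains and 4 diets. They were chosen by symbol alone, as protein-coding genes named Nduf followed by a, b, c, s or v and a number, Sdha to Sdhd, Uqcr, Cox4 to Cox8, and Atp5. The assembly factors named Ndufaf and the pseudogenes were left out, and so was a second protein-coding identifier that overlaps Atp5po. That identifier averaged 429 TPM over all libraries, against 193 TPM for the one kept, so the Atp5po values and the complex V sums below do not hold all of the Atp5po signal. This gave 87 genes of 56980 gene identifiers in the deposited table. By symbol, 39 were assigned to complex I, 4 to complex II, 8 to complex III, 18 to complex IV and 18 to complex V. The symbol and not the place of the protein set the complex, so Ndufa4 and Ndufa4l2 are counted in complex I by name. Sums and shares of complexes I and IV below follow these names.

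The respiratory chain sits in the inner membrane of mitochondria. Complexes I and II pass electrons from NADH and succinate to coenzyme Q, complex III passes them on to cytochrome c, and complex IV, cytochrome c oxidase, passes them to oxygen. Complexes I, III and IV pump protons as they do so, and complex V, the ATP synthase, makes ATP as protons flow back through it. Most subunits are encoded in the nucleus, and a few of the core subunits of complexes I, III, IV and V are encoded by mitochondrial DNA. Several small subunits of complexes IV and V come in forms from separate genes, among them the heart and muscle forms Cox6a2, Cox7a1 and Cox8b and the more widely expressed forms Cox6a1, Cox7a2 and Cox8a. Brown fat is rich in mitochondria whose proton flow bypasses the ATP synthase through Ucp1, which releases heat, and rodent brown fat is known for holding little ATP synthase for its mitochondria.

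RNA was sequenced from 160 libraries of 35 male mice of 4 inbred strains, A/J, C57BL/6J, SJL and DBA/2J. All mice ate chow until 12 weeks of age and then, for 6 weeks, a Mediterranean, a Vegetarian, a Vegan or an American diet, each a mouse version of a human diet that per the labels matched the others in energy and macronutrients and differed in the sources of the nutrients. Brown fat, quadriceps muscle, visceral fat, subcutaneous fat and liver were taken at 18 weeks of age, with 2 libraries for each tissue, strain and diet, so that each tissue had 32 libraries and each strain 8 of them, and 29 mice gave all 5 tissues. Each strain is a single inbred genotype, and as background C57BL/6J is known to lack a working Nnt, a proton-driven transhydrogenase of the inner membrane, while A/J and SJL carry mutations of dysferlin, a muscle membrane repair protein. The mice are named below by the numbers in the labels. Within a tissue each library came from a different mouse, and the spread behind each p value is that between these mice. Between tissues, libraries of the same mouse entered the fit as if independent. Counts from a fit with the mouse as a block are given near the end.

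The tissues carried their defining markers, but many libraries also held marker transcripts of another tissue. Totals ran from 18.0 to 54.8 M counts per library over the 5 tissues. Ucp1 averaged 7003 CPM (counts scaled to the library total) in brown fat, Ckm, the muscle creatine kinase, 13870 CPM in quadriceps, and Alb, serum albumin, 85074 CPM in liver. A library of any other tissue was set aside in an alternative when it held over 10% of the liver level of Alb. The same limit applied to the quadriceps level of Ckm and the brown fat level of Ucp1. Also set aside were visceral libraries under 10% of the visceral median of Wt1 and subcutaneous ones under 10% of the subcutaneous median of Hoxc10. These rules covered 4 brown fat, 8 quadriceps, 12 visceral, 17 subcutaneous and 0 liver libraries. They are called libraries holding transcripts of another tissue below, whatever the source of the transcripts. All 8 SJL subcutaneous libraries were among them, each with Ucp1 at 14.8 to 45.1% of the brown fat mean. Whether this Ucp1 came with pieces of brown fat or was made in the depot itself was not tested. The visceral library of the SJL American mouse 50 had Wt1 at 0 and Hoxc10 at 97.8% of the subcutaneous median, and the subcutaneous library of the A/J Mediterranean mouse 24 had Hoxc10 at 1.75% of that median, so both went against their depot labels. In tissue pieces such as these, fewer cells of a type and less RNA per cell cannot be told apart. Of the 87 genes, 84 were kept for testing in each tissue except liver, where 83 were. Ndufb11b, Cox7b2 and Cox8c, whose mean was at most 0.05 TPM, a measure of transcripts scaled by gene length and library total, were not tested. Between 80.0 and 89.4% of the values of Ndufb2, Ndufb9, Atp5f1b, Atp5pb and Atp5po were fractional, 70.0% of those of Ndufb8 and 60.0% of those of Uqcrb. For Ndufs1, Ndufb1, Ndufa9, Uqcrc1, Atp5mg, Cox6c, Uqcrc2, Ndufs3, Ndufb6, Ndufa13, Ndufa2 and Atp5pf it was 50.6 to 56.9%. Values of all these genes are uncertain to the extent that reads were split with other features, and which features those were was not tested. The left-out pseudogene Ndufa12-ps averaged 211 TPM, and Cox5b-ps, left out by its symbol, 152 TPM. Of the values of Ndufa12 1.25% were fractional and of those of Cox5b 1.88%, so splitting touched few of them. Whether whole reads were assigned to the wrong gene of these pairs was not tested.

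Promoter sequences are shown for the partners whose levels set the tissues apart and for 1 subunit with matches to regulator motifs. RefSeq promoters on GRCm38.p6, running from 250 bases before to 50 bases after the annotated start, were at hand for 55 of the 87 genes. Both strands were searched for exact matches, and capitals mark each match. The motifs were GCGCA, any base and GCGC for NRF1, CCGGAAGT for the ETS factor GABPA, AAGATGGC for YY1, TCAAGGTCA for the oestrogen-related receptors, and CTA, any 4 bases and TAG for MEF2, a muscle factor. The first pair below are the promoters of the partners Cox8b, at chr7:140900397-140900696 on the minus strand, and Cox8a, at chr19:7217567-7217866 on the minus strand.
Cox8b: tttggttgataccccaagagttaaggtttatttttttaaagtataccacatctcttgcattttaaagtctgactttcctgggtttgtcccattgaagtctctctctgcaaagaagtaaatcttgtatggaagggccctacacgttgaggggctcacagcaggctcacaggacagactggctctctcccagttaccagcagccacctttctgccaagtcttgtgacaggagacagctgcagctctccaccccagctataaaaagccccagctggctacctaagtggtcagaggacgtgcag
Cox8a: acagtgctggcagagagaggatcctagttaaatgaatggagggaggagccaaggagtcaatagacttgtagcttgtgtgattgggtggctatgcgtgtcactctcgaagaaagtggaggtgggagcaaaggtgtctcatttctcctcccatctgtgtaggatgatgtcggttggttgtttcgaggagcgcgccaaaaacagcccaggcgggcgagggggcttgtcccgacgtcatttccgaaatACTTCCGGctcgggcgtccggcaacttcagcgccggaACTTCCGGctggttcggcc
The other pair are Cox7a1, at chr7:30183921-30184220 on the plus strand, the second gene that set brown fat and muscle apart from liver, and Sdhd, at chr9:50603800-50604099 on the minus strand, a membrane anchor of complex II.
Cox7a1: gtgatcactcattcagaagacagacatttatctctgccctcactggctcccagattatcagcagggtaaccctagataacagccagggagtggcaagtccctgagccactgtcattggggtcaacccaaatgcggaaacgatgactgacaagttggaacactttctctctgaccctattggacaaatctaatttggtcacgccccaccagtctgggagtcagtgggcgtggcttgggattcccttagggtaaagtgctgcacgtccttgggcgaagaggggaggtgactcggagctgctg
Sdhd: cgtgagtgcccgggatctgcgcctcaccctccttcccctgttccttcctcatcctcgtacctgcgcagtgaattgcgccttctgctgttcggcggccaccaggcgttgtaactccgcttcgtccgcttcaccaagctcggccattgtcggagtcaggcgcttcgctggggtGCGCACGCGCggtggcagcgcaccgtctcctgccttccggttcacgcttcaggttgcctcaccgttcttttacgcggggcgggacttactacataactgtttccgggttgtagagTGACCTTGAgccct
Neither Cox8b nor Cox7a1 held any of the 5 motifs in this window. Cox8a held the GABPA motif at 2 places, read on the other strand as ACTTCCGG. Sdhd held an NRF1 motif, GCGCACGCGC, and an oestrogen-related receptor motif read on the other strand as TGACCTTGA, and none of the capital stretches overlap. The NRF1 motif was in 11 of the 55 promoters (20.0%), against 7.17% of 17491 protein-coding promoters, and lay in 7 of 33 complex I, 2 of 3 complex II, 1 of 5 complex III, 1 of 13 complex IV and 0 of 1 complex V promoters. Complex I thus made up 33 of the 55 promoters, and 17 of the 18 complex V genes had none in the table. The YY1 motif was in 8 of 55 (14.5%) against 3.57% of all, the GABPA motif in 4 of 55 (7.27%) against 5.69%, the oestrogen-related receptor motif in 1 of 55 (1.82%) against 0.377%, and the MEF2 motif in 1 of 55 (1.82%) against 4.01%. These shares describe letters in a fixed window and no binding. The pattern used for MEF2 left its middle 4 bases open, so its matches need not be MEF2 sites.

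Brown fat had the highest level of most respiratory chain genes, quadriceps came next, and liver, subcutaneous and visceral fat lay close together far below. On the TPM scale, 65 of the 84 genes were highest in brown fat, 15 in quadriceps, 3 in visceral fat, 1 in subcutaneous fat and 0 in liver, and 64 were lowest in liver. The summed TPM of the genes was 55239 ± 5179 in brown fat, 34049 ± 6012 in quadriceps, 20700 ± 3990 in visceral fat, 21415 ± 4729 in subcutaneous fat and 15761 ± 1409 in liver (SD, n = 32 each). As a share of all counts, they took 4.07% in brown fat, 2.46% in quadriceps, 1.22% in visceral fat, 1.31% in subcutaneous fat and 1.18% in liver. Within a complex the levels differed widely between genes. In brown fat the lowest gene counted in complex I by its name was Ndufa4l2 (mean TPM 16.2). The highest and lowest were Sdha (1299) and Sdhc (338) in complex II, Uqcr10 (1453) and Uqcrq (598) in complex III, Cox8b (4546) and Cox6b2 (7.92) in complex IV, and Atp5f1b (3305) and Atp5if1 (7.38) in complex V. Atp5f1b is the catalytic beta subunit of ATP synthase, and Atp5if1 encodes its inhibitor protein. The gene lengths behind the deposited TPM are not given and looked long for some small genes, among them Atp5mc1, Atp5mg and Ndufb7, which limits comparisons of level between genes but not between samples of 1 gene.

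**Figure D1:**
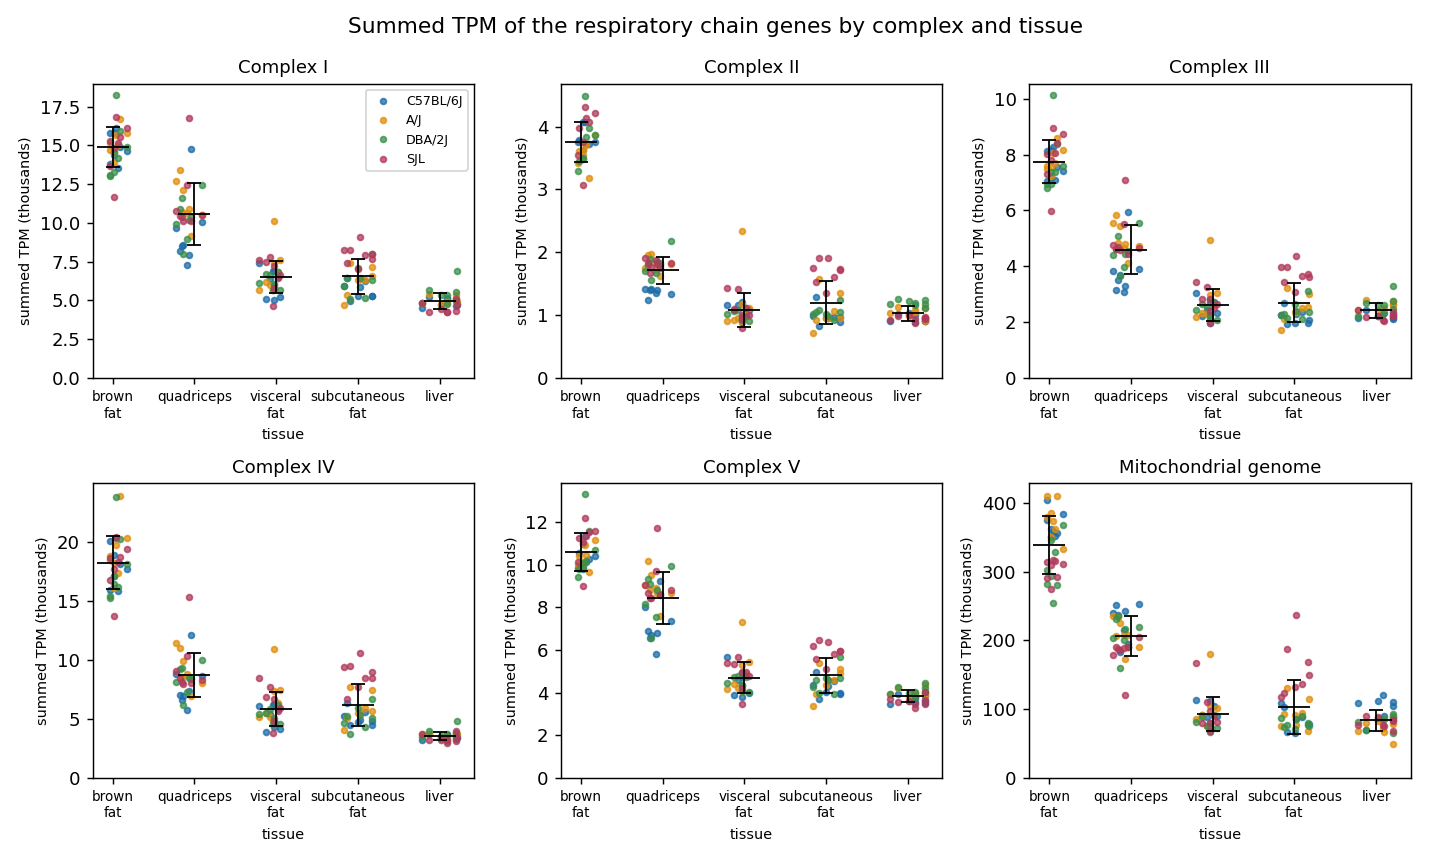
Summed TPM (axis in kTPM) of the genes of complexes I to V and, for comparison, of the protein genes of mitochondrial DNA, by tissue. Each point is 1 library, coloured by strain, and the bars are the mean and SD of 32 libraries. Brown fat has the highest mean in each panel. Complex V averaged 10610 TPM in brown fat and 8457 TPM in quadriceps, and complex IV 18215 TPM in brown fat and 8698 TPM in quadriceps.

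The balance among the complexes also differed between tissues. Complex V took 19.2 ± 0.882% of the summed TPM of the genes in brown fat (range 15.5 to 20.8), 25.0 ± 1.19% in quadriceps (21.1 to 26.2), 22.8% in visceral fat (20.5 to 24.2), 22.7% in subcutaneous fat (19.8 to 25.0) and 24.3 ± 0.720% in liver (21.7 to 25.2). The brown fat libraries did not overlap those of quadriceps or liver in this share, and overlapped those of the fat depots at their edge. Complex IV took 32.9% in brown fat, 25.4% in quadriceps, 27.8% in visceral fat, 28.4% in subcutaneous fat and 22.3% in liver. Complex II took 6.82% in brown fat, 5.09% in quadriceps, 5.23% in visceral fat, 5.52% in subcutaneous fat and 6.53% in liver.

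Brown fat was compared with quadriceps to ask how 2 tissues rich in mitochondria differ. By edgeR's quasi-likelihood test over the 64 libraries, with Benjamini-Hochberg adjustment over all genes and an adjusted p under 0.05 as the call, 52 of the 84 genes were higher and 16 lower in brown fat. Of all 21577 genes tested, 83.1% were called (41.3% higher, 41.8% lower), so being called says little here, and the direction by complex carries the description. All 4 complex II genes and all 8 complex III genes were higher, as were 14 of 16 in complex IV and 22 of 38 in complex I, where 6 were lower. In complex V, 4 of 18 were higher and 9 lower. The median log2 difference, brown fat over quadriceps, was 0.22 in complex I, 0.89 in complex II, 0.62 in complex III, 0.65 in complex IV and -0.19 in complex V, against 0.00 over all genes. On log2(TPM + 1), where the median of all genes was 0.16, the median of complex V was 0.02, with 8 of its genes higher and 8 lower.

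The complex V genes that were lower in brown fat included the ring of the proton channel. Atp5mc1 encodes the c subunit of that ring, as Atp5mc2 and Atp5mc3 do, the 3 genes giving the same mature protein. Atp5mc1 had 1.30, 6.27 and 19.6 TPM as lowest, median and highest value in brown fat, against 85.5, 158 and 234 TPM in quadriceps and 33.4, 55.0 and 94.0 TPM in liver. Every brown fat library lay below every quadriceps and liver library. Its log2 difference was -4.59 (SE 0.19, adjusted p = 2.25e-31 by edgeR) against quadriceps and -3.44 (SE 0.16, adjusted p = 5.27e-28) against liver. Atp5mc3 averaged 196 ± 20.8 TPM in brown fat, 543 ± 102 TPM in quadriceps and 353 ± 36.9 TPM in liver, and its brown fat libraries, at 151 to 243 TPM, lay below all libraries of both. The log2 difference of Atp5mc3 was -1.65 against quadriceps and -1.35 against liver. Atp5mc2 was closer, at 156 ± 17.2 TPM in brown fat, 187 ± 25.1 TPM in quadriceps and 97.1 ± 8.04 TPM in liver. Together the 3 c-ring genes took 3.40% of the summed TPM of complex V in brown fat (2.73 to 4.25), 10.4% in quadriceps (9.29 to 11.7), 11.1% in visceral fat, 10.1% in subcutaneous fat and 13.2% in liver (11.7 to 14.4).

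Other complex V genes moved with the c ring or against it. Atp5pf, coupling factor 6 of the stalk, was lower in brown fat by -1.62 on the log2 scale (adjusted p = 8.38e-31), and Atp5if1 by -1.12 (adjusted p = 1.08e-17). Atp5f1c, the gamma subunit of the rotor, was at -0.63 (adjusted p = 4.17e-14). The head subunits Atp5f1b and Atp5f1a did not follow them on the TPM scale. Atp5f1b had 2680, 3346 and 3863 TPM in brown fat as lowest, median and highest value, against 1129, 1614 and 1970 TPM in quadriceps. Atp5f1a averaged 2589 ± 295 TPM in brown fat and 1822 ± 232 TPM in quadriceps. Thus the head subunits stood higher and the c ring lower in the same brown fat libraries.

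Complex IV split by isoform. Cox6a1 had 1974, 2446 and 3673 TPM in brown fat as lowest, median and highest value, against 62.3, 126 and 269 TPM in quadriceps, a log2 difference of 4.10 (SE 0.11, adjusted p = 1.07e-40 by edgeR). Its muscle partner Cox6a2 had 5.54, 45.2 and 204 TPM in brown fat, against 991, 1674 and 2698 TPM in quadriceps, a log2 difference of -5.17 (SE 0.26, adjusted p = 3.21e-26). The libraries of the 2 tissues did not overlap for either gene. Cox8a was higher in brown fat by 3.51 (SE 0.09, adjusted p = 6.73e-42), and its muscle partner Cox8b was higher there too, by 1.22 (SE 0.11, adjusted p = 4.02e-16). Of the remaining genes with the largest rises in brown fat, Ndufv3, an accessory subunit of complex I, stood at 1.26, Sdha, the flavoprotein of complex II, at 1.21, and Ndufa10, of complex I, at 1.14.

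**Figure D2:**
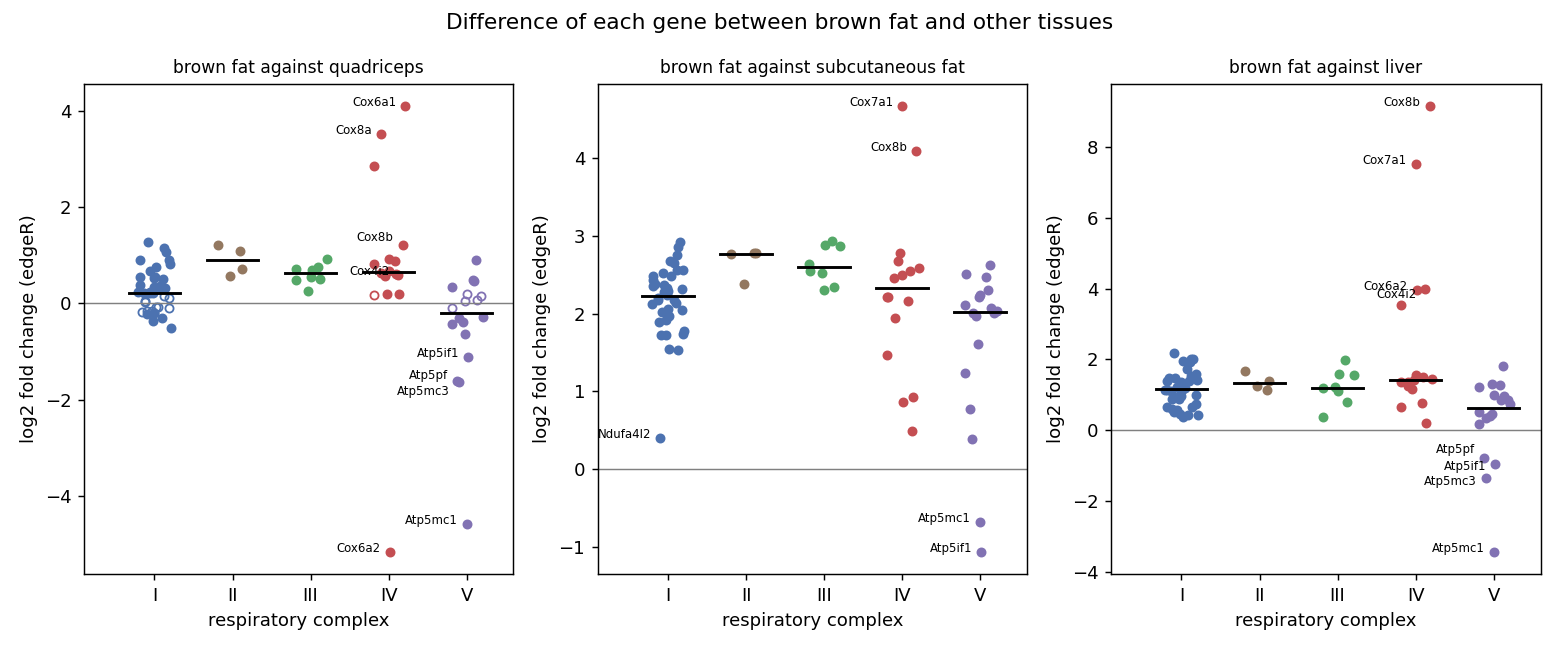
Log2 difference of each respiratory chain gene (edgeR, vertical axis, with a scale of its own in each panel) between brown fat and quadriceps, subcutaneous fat or liver, by complex. Filled points were called at an adjusted p under 0.05, open points were not, and bars are medians. The genes below 0 against subcutaneous fat and liver are all in complex V, with Atp5mc1 at -3.44 against liver.

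Against subcutaneous fat, nearly the whole chain was higher in brown fat. By edgeR, 82 of the 84 genes were higher and 2 lower, where 81.3% of all genes were called (39.1% higher, 42.2% lower). The median log2 difference was 2.26 over the respiratory chain genes and -0.03 over all genes, and ran from 2.02 in complex V to 2.77 in complex II. The 2 lower genes were Atp5if1 at -1.06 (SE 0.06, adjusted p = 4.88e-25) and Atp5mc1 at -0.68 (SE 0.18, adjusted p = 0.000534). The largest rises were in Cox7a1 at 4.67 (SE 0.32, adjusted p = 3.89e-20) and Cox8b at 4.09 (SE 0.24, adjusted p = 9.19e-24), followed by Uqcrc1 at 2.94, Ndufv1 at 2.92, Uqcrfs1 at 2.88 and Uqcrc2 at 2.87. Uqcrc1 and Uqcrc2 encode the core proteins of complex III, Uqcrfs1 its Rieske iron-sulphur protein, and Ndufv1 the subunit of complex I that binds NADH. On the TPM scale the median of all genes shifted to -0.82 for this pair, and the median of the respiratory chain genes was 2.04 above it, against 2.29 above it in edgeR. On that scale Atp5mc3 (-0.65), Cox4i2 (-0.50), Cox7a2l (-0.11) and Ndufa4l2 (-0.61) were negative, where edgeR gave 0.38, 0.50, 0.93 and 0.40 for these genes in that order.

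Against liver, 80 of the 84 genes were higher in brown fat and 4 lower by edgeR, where 87.4% of all genes were called (45.7% higher, 41.7% lower). The median was 1.18 over the respiratory chain genes and 0.07 over all genes. The 4 lower genes were all in complex V: Atp5mc1, Atp5mc3, Atp5if1 at -0.97 (adjusted p = 1.06e-18) and Atp5pf at -0.79 (adjusted p = 3.09e-26). The median of complex V was 0.63, against 1.15 in complex I, 1.33 in complex II, 1.20 in complex III and 1.43 in complex IV. Cox8b had 3052, 4414 and 6783 TPM in brown fat and was listed between 0 and 64.3 TPM in liver, with a median of 2.92 TPM. Cox7a1 averaged 1548 ± 253 TPM in brown fat and 6.30 ± 3.99 TPM in liver, a log2 difference of 7.53 (SE 0.18, adjusted p = 1.08e-43). On the TPM scale the median of all genes shifted to 0.37 for brown fat against liver and to 0.16 for brown fat against quadriceps.

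Quadriceps also exceeded liver along most of the chain, with 79 of 84 genes higher and 3 lower by edgeR, where 87.5% of all genes were called (44.8% higher, 42.6% lower). The median was 0.85, against 0.03 over all genes, and all 18 complex V genes were higher, with a median of 0.90. The 3 lower genes were the widely expressed forms Cox6a1 at -2.55 (SE 0.10, adjusted p = 3.03e-32) and Cox8a at -2.05 (SE 0.08, adjusted p = 8.80e-33), and Uqcrq, a small subunit of complex III, at -0.23 (SE 0.09, adjusted p = 0.0172). Their partners Cox6a2, at 9.23, and Cox8b, at 8.02, had the largest rises, followed by Cox7a1 at 6.96, and by Ndufa12, Ndufc1 and Ndufs7, subunits of complex I, at 1.78, 1.75 and 1.65. The 2 white fat depots differed little. In visceral against subcutaneous fat 36 genes were higher and 2 lower, where 66.9% of all genes were called (34.2% higher, 32.8% lower), and the median was 0.13 against 0.02 over all genes. Cox8b was at -0.73 (SE 0.29, adjusted p = 0.0223) and Cox7a2l at -0.19 (SE 0.05, adjusted p = 0.000381), and the largest rise, in Ndufa4l2, was 0.48 (SE 0.09, adjusted p = 2.90e-06). This split depended on the scale and on the libraries: on log2(TPM + 1) 7 genes were higher and 7 lower, and without the libraries holding transcripts of another tissue 16 were higher and 0 lower.

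Shares of isoform pairs, as means over all libraries of a tissue, differed between tissues. The white fat means include libraries over the marker limits. In subcutaneous fat 5 libraries passed the Ckm limit and 10 the Ucp1 limit, and in visceral fat 2 passed each. The subcutaneous means also hold the SJL libraries, whose Cox7a1 and Cox8b shares were higher, as given below. Cox6a2 made up 2.34% (0.151 to 8.93) of the Cox6a1 and Cox6a2 TPM in brown fat and 92.0% (80.4 to 97.1) in quadriceps, against 5.40% in visceral fat, 6.44% in subcutaneous fat and 0.487% in liver. Cox7a1 made up 66.6% (63.1 to 70.1) of its pair with Cox7a2 in brown fat and 69.6% (60.5 to 74.6) in quadriceps, which overlapped, against 17.0% in visceral fat, 27.1% in subcutaneous fat and 1.92% in liver. Cox8b made up 69.1% (62.7 to 73.5) of its pair with Cox8a in brown fat and 91.0% (77.9 to 94.5) in quadriceps, which did not overlap, against 18.6% in visceral fat, 34.9% in subcutaneous fat and 1.26% in liver. Brown fat thus held the muscle forms Cox7a1 and Cox8b at high shares and Cox6a2 at a low share. Atp5mc1 made up 4.47% (0.815 to 10.5) of its pair with Atp5mc2 in brown fat, 44.3% (29.2 to 56.3) in quadriceps, 17.6% in visceral fat, 14.5% in subcutaneous fat and 35.6% (25.8 to 47.2) in liver. Further forms were minor everywhere: Cox4i2 made up 0.112 to 2.37% of its pair with Cox4i1 as tissue means, and Ndufa4l2 0.566 to 7.37% of its pair with Ndufa4, both highest in visceral fat.

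**Figure D3:**
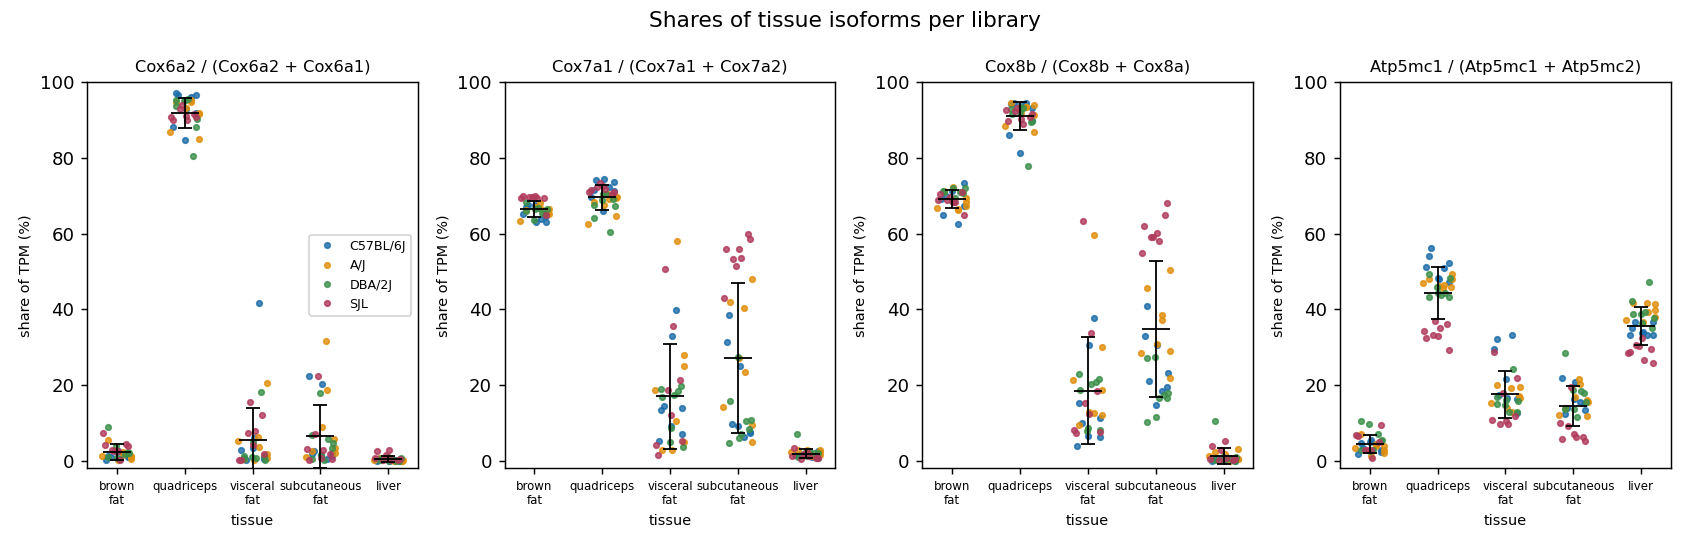
Share of TPM (%) of 4 isoforms within their pair, by tissue, with 1 point per library coloured by strain and bars for the mean and SD of 32 libraries. Cox6a2 is highest in quadriceps, Cox7a1 and Cox8b are high in brown fat and quadriceps, and the SJL points of subcutaneous fat lie between 43.0 and 59.9% for Cox7a1.

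Genes around the chain were read from lists of their own. In brown fat against quadriceps, 13 of 13 genes of the TCA cycle were higher (median 1.30), 12 of 13 protein genes of mitochondrial DNA (0.98) and 10 of 11 electron carriers and entry enzymes (1.17), and 0 of these were lower. Of 53 assembly factors, which build the complexes and are not part of them, 28 were higher and 16 lower (0.19), and of 17 regulators of mitochondrial genes 9 were higher and 5 lower (0.13). The background in this contrast was 41.3% of all genes higher and 41.8% lower. Ppargc1b, a coactivator of mitochondrial genes, was higher in brown fat than in quadriceps by 2.77 (SE 0.13, adjusted p = 3.61e-28), and Gabpa by 1.07 (SE 0.07, adjusted p = 6.47e-22). Both were picked among the higher genes, and the 5 lower regulators are not named. In brown fat against subcutaneous fat, 53 of 53 assembly factors were higher (1.34) and 14 of 17 regulators (1.37), with 3 regulators lower. There the background was 39.1% of all genes higher and 42.2% lower. Esrra, the oestrogen-related receptor alpha, was higher in brown fat by 2.30 (SE 0.06, adjusted p = 1.52e-39) against subcutaneous fat and by 2.04 (SE 0.05, adjusted p = 1.11e-45) against liver. It was likewise picked among the higher genes, and the 3 regulators lower against subcutaneous fat are not named.

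Strain differences were next read within each tissue, each strain set against the average of the remaining 3, so that the 4 contrasts of a tissue share all 32 libraries. Reads of strains other than C57BL/6J were aligned by the authors with a relaxed mismatch penalty, so for C57BL/6J strain and alignment setting cannot be told apart. A/J, DBA/2J and SJL shared the relaxed setting. The mean that each was set against holds C57BL/6J, so the setting enters those contrasts too. In brown fat, A/J had 33 genes higher and 1 lower, C57BL/6J 9 higher and 2 lower, DBA/2J 4 higher and 14 lower, and SJL 2 higher and 13 lower, by edgeR. Of all genes, 35.8%, 26.2%, 34.8% and 23.9% were called in these contrasts in the order named. With both directions pooled, the shares of respiratory chain genes called were thus near the background or below it. By direction, the share of all genes called was 17.3% higher and 18.5% lower in A/J, 13.4% and 12.8% in C57BL/6J, 19.9% and 14.8% in DBA/2J, and 12.3% and 11.5% in SJL. The 33 genes higher in A/J were a larger share than that background, and its 1 lower gene was a smaller share. The median log2 difference was 0.19 in A/J, 0.08 in C57BL/6J, -0.14 in DBA/2J and -0.13 in SJL.

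The A/J count in brown fat rested on 1 library. Without the A/J American mouse 18 it was 7 higher and 5 lower, and the C57BL/6J count became 27 higher and 2 lower. On log2(TPM + 1) the A/J count was 6 higher and 9 lower, with a median of 0.06. The DBA/2J count ranged with its own libraries, from 35 without the Mediterranean mouse 38 to 11 without the Vegan mouse 45, and was 31 without the SJL American mouse 49. Without the 4 brown fat libraries holding liver transcripts, DBA/2J had 4 higher and 30 lower and SJL 2 higher and 2 lower. For C57BL/6J, 17 were called without the DBA/2J mouse 38 and 7 without the C57BL/6J Vegan mouse 13. Cox6b2, the testis form of the Cox6b subunit, was at -0.63 in C57BL/6J (SE 0.14, adjusted p = 0.0013) and 0.55 in SJL (SE 0.13, adjusted p = 0.00233), at low levels of 1.88, 2.63 and 3.98 CPM in C57BL/6J as lowest, median and highest value, against 2.06, 4.05 and 6.45 CPM in the others, which overlapped. Ndufa7 of complex I was at 0.41 in A/J (SE 0.09, adjusted p = 0.00107) and at -0.45 in SJL (SE 0.10, adjusted p = 0.000887), Ndufa12 of complex I was at 0.46 in C57BL/6J (adjusted p = 0.00148), and Atp5if1 was at 0.46 in DBA/2J (adjusted p = 0.000188). Ndufa7 had 88.7, 108 and 123 CPM in SJL brown fat as lowest, median and highest value, against 103, 151 and 298 CPM in the other 24 libraries, which overlapped.

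In liver, DBA/2J had 14 genes higher and 1 lower, SJL 2 higher and 25 lower, A/J 9 higher and 1 lower, and C57BL/6J 2 higher and 5 lower. Of all genes, 26.1%, 30.1%, 28.5% and 26.7% were called in these contrasts, in the same order. By direction this was 14.6% higher and 11.5% lower in DBA/2J, 16.5% and 13.6% in SJL, 14.7% and 13.9% in A/J, and 14% and 12.7% in C57BL/6J. Sdhb, the iron-sulphur subunit of complex II, had 228, 274 and 359 CPM in DBA/2J livers, against 154, 198 and 327 CPM in the others, a log2 difference of 0.50 (SE 0.09, adjusted p = 4.51e-05 by edgeR). The groups overlapped. In SJL livers Ndufa7 was lower by -0.61 (SE 0.11) and Cox6c, a small subunit of complex IV, by -0.45 (SE 0.10, adjusted p = 0.000958). Without the DBA/2J Mediterranean mouse 38 or the SJL Mediterranean mouse 53, 33 genes were called in DBA/2J livers, and without the DBA/2J Vegan mouse 45, 6 were. Without the SJL mouse 53, 53 were called in SJL livers, 1 higher and 52 lower. In C57BL/6J livers 4 were called without any of its mice 1, 8, 13 and 16.

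Quadriceps gave few calls in any strain. There were 3 higher and 0 lower in C57BL/6J, 1 higher and 0 lower in A/J, 1 higher and 1 lower in DBA/2J, and 2 higher and 2 lower in SJL, where 27.3%, 11.9%, 15.6% and 37.2% of all genes were called. By direction the background was 13.1% higher and 14.2% lower in C57BL/6J, 5.79% and 6.08% in A/J, 6.7% and 8.93% in DBA/2J, and 20.9% and 16.3% in SJL. Atp5mc1 had 149, 172 and 325 CPM in SJL muscle, against 228, 321 and 661 CPM in the other strains, which overlapped, a log2 difference of -0.89 (SE 0.15, adjusted p = 2.51e-05), and in C57BL/6J muscle it was at 0.61 (SE 0.14, adjusted p = 0.00147). As a share of its pair with Atp5mc2, Atp5mc1 was at 33.8 ± 2.43% of TPM in SJL muscle (29.2 to 36.9), against 51.0 ± 3.16% in C57BL/6J, 47.1 ± 1.25% in A/J and 45.3 ± 2.36% in DBA/2J, whose lowest library was at 43.2%. SJL livers also had the lowest share, at 29.1 ± 2.13% (25.8 to 32.4), against 39.4 ± 2.03% in A/J, 39.5 ± 3.77% in DBA/2J and 34.5 ± 1.48% in C57BL/6J, whose lowest library was at 33.2%. In both tissues all 8 SJL libraries lay below the 24 others in this share. The fall of Atp5mc1 in SJL was called under all 40 settings tried in quadriceps and in liver, where it was at -0.58 (SE 0.12, adjusted p = 0.000385). Sdha was at 0.30 in DBA/2J muscle (SE 0.06, adjusted p = 0.000584) and at -0.30 in SJL muscle (SE 0.06, adjusted p = 0.000371).
On log2(TPM + 1) the median of all genes shifted to -0.25 in C57BL/6J muscle and 0.16 in SJL muscle, and the counts became 1 higher and 43 lower in C57BL/6J and 18 higher and 1 lower in SJL. Without the SJL Vegan mouse 64, SJL had 1 higher and 11 lower, C57BL/6J 6 higher and 1 lower and A/J 5 higher. Without the C57BL/6J American mouse 1, C57BL/6J had 1 higher and 6 lower and A/J 3 higher, without the C57BL/6J Mediterranean mouse 8, C57BL/6J had 5 higher, and without the A/J mouse 22 or 27 A/J had 0.

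By its median, the largest strain difference was in subcutaneous fat, where SJL stood above the other strains along most of the chain. By edgeR, 74 of 84 genes were higher and 3 lower in SJL, where 43.8% of all genes were called, 21.9% higher and 21.9% lower. The median log2 difference was 0.57, against 0.02 over all genes, and by complex 0.55, 0.81, 0.77, 0.57 and 0.46 in complexes I to V. Cox7a1 had 58.2, 101 and 160 CPM in SJL as lowest, median and highest value, against 2.34, 8.11 and 70.6 CPM in the others, a log2 difference of 2.82 (SE 0.44, adjusted p = 1.13e-05). Cox8b had 183, 247 and 442 CPM in SJL, against 13.5, 42.3 and 172 CPM in the others, which did not overlap, and its log2 difference was 2.43 (SE 0.25, adjusted p = 1.66e-08). Most of the chain moved by about the size of the median. Sdha had 685, 870 and 1251 CPM in SJL, against 323, 488 and 829 CPM in the others, and Uqcrc1 had 382, 554 and 842 CPM, against 151, 234 and 446 CPM, a log2 difference of 1.15 (SE 0.14). The 3 lower genes were Atp5mc1 at -0.74 (SE 0.26, adjusted p = 0.0214), Ndufa4l2 at -0.36 (SE 0.13, adjusted p = 0.027) and Atp5if1 at -0.28 (SE 0.08, adjusted p = 0.00674). Atp5mc1 had 17.0, 20.4 and 77.2 CPM in SJL, against 29.9, 40.8 and 110 CPM in the others, which overlapped. The pair shares moved too, with Cox7a1 at 54.0 ± 5.21% of its pair with Cox7a2 in SJL, against 16.9% in C57BL/6J, 26.2% in A/J and 11.3% in DBA/2J, and Cox8b at 60.9 ± 4.13% of its pair with Cox8a, against 25.2%, 35.3% and 18.2% in the same 3 strains.

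The brown adipocyte markers moved with the chain in these libraries. The summed level of the 8 markers (Ucp1, Cidea, Dio2, Elovl3, Ppargc1a, Zic1, Cpt1b and Kcnk3) ran from 1507 to 4161 CPM in SJL subcutaneous fat, against 76.5 to 2299 CPM in A/J, 84.8 to 1290 CPM in C57BL/6J and 139 to 361 CPM in DBA/2J. The 6 adipocyte markers ran from 4343 to 7220 CPM in SJL, against 5291 to 14366 CPM in the other 3 strains. Whether these markers account for the difference was not tested, because all 8 SJL libraries passed the Ucp1 limit and none was left to compare. The protein genes of mitochondrial DNA were higher in SJL for 13 of 13 (median 1.02), as were 13 of 13 TCA cycle genes (0.97), 14 of 17 regulators (0.41), 29 of 53 assembly factors with 2 lower (0.21), and 11 of 13 coenzyme Q genes (0.45). The background in this contrast was 21.9% of all genes higher and 21.9% lower. Esrra was at 0.70 (SE 0.08, adjusted p = 1.71e-07) and Cycs, cytochrome c, at 1.10 (SE 0.13, adjusted p = 1.18e-07), both picked among the higher genes.

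The other subcutaneous contrasts have SJL in their mean. C57BL/6J had 1 gene higher and 63 lower, where 25% of all genes were called, 13.6% higher and 11.4% lower, but against A/J and DBA/2J alone it had 1 higher and 6 lower, with 22.9% of all genes called. A/J had 0 higher and 2 lower, Ndufc2 at -0.33 and Ndufa6 at -0.27, where 19.5% of all genes were called (11.3% higher, 8.17% lower), and the count lay between 1 and 14 without any of 17 single libraries, at 14 without the A/J Mediterranean mouse 22. DBA/2J had 5 higher and 6 lower, where 45.6% were called (25.1% higher, 20.5% lower), or 11 higher and 2 lower without SJL, where 38.4% were. Ndufa4l2 was the largest rise in DBA/2J, with 10.8, 15.3 and 22.0 CPM, against 5.13, 8.33 and 14.5 CPM in the others, a log2 difference of 0.88 (SE 0.12). Without the DBA/2J Vegetarian mouse 42, DBA/2J had 4 higher and 14 lower.

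In visceral fat the chain was lower in DBA/2J. There 1 gene was higher and 49 lower, where 29.2% of all genes were called, 15.9% higher and 13.3% lower, and the median was -0.38, against -0.05 over all genes. By complex the medians were -0.38, -0.42, -0.43, -0.40 and -0.34 in complexes I to V. Sdha had 360, 394 and 484 CPM in DBA/2J, against 328, 515 and 1410 CPM in the others, which overlapped. Named falls were Ndufa5 at -0.62 (SE 0.15, adjusted p = 0.00198) and Ndufb1 at -0.55 (SE 0.11, adjusted p = 0.000431), both of complex I, and the 1 rise was Atp5if1 at 0.32 (SE 0.10, adjusted p = 0.0193). The count fell to 22, all lower, without the 12 libraries holding transcripts of another tissue, to 32 without a filter on low counts, and to between 24 and 33 without any of 7 libraries (DBA/2J mice 33, 34, 40 and 48, C57BL/6J mice 13 and 16, and SJL mouse 49). On log2(TPM + 1), where the median of all genes was 0.17, it was 3 higher and 5 lower. The 8 hepatocyte markers summed to a median of 3349 CPM in DBA/2J (116 to 18884), against 11568 CPM in C57BL/6J, 8119 CPM in SJL and 3040 CPM in A/J, and the 8 brown adipocyte markers to 253 CPM, against 212, 284 and 115 CPM in the same 3 strains. Their part in the difference was not tested beyond the count without those libraries. C57BL/6J had 1 higher and 0 lower, SJL 1 higher, Cox5b of complex IV at 0.40, and 0 lower, and A/J 0 in either direction, where 12.5% (6.65% higher, 5.82% lower), 17.6% (8.7% and 8.88%) and 13.4% (8.1% and 5.3%) of all genes were called. Without the A/J Mediterranean mouse 24, which passed the limits for Ucp1 and Alb, SJL had 18 higher, and its count ran from 0 to 5 without any of 10 other libraries.

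**Figure D4:**
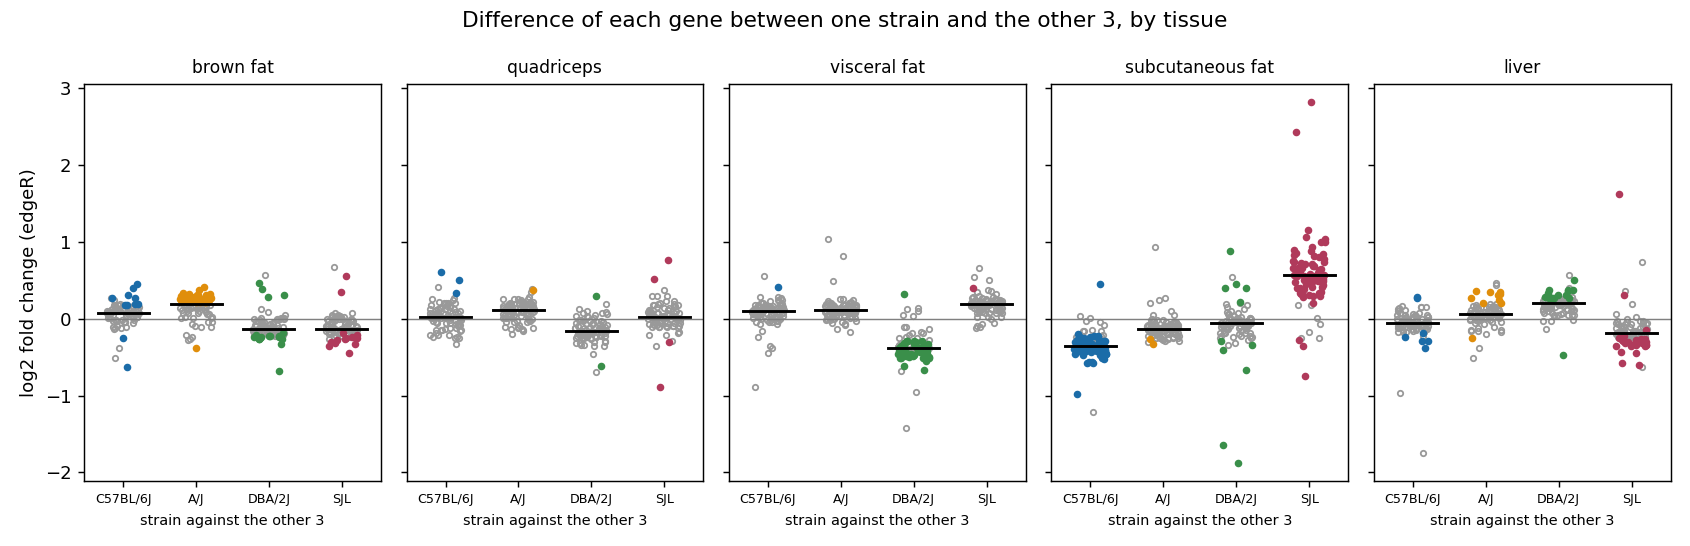
Log2 difference (edgeR) of each respiratory chain gene between a strain and the mean of the other 3, in each tissue. Coloured points were called at an adjusted p under 0.05, open grey points were not, and bars are medians. SJL in subcutaneous fat has a median of 0.57 and DBA/2J in visceral fat a median of -0.38.

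Cox7a2l differed by strain in the same direction in all 5 tissues. It encodes a relative of the Cox7a subunits that joins complexes III and IV into supercomplexes, and as background C57BL/6J is known to carry a shorter version of its protein. The level was lower in DBA/2J in every tissue. In brown fat it had 80.5, 89.8 and 104 CPM in DBA/2J as lowest, median and highest value, against 122, 146 and 187 CPM in the other strains, with no overlap and a log2 difference of -0.69 (SE 0.06, adjusted p = 1.10e-10 by edgeR). In quadriceps it had 55.8, 69.9 and 87.2 CPM in DBA/2J, against 85.5, 100 and 180 CPM in the others, a log2 difference of -0.62 (adjusted p = 0.000309). The groups there overlapped at the edge alone. In visceral fat DBA/2J had 54.4, 62.7 and 78.3 CPM, against 74.5, 105 and 132 CPM in the others, a log2 difference of -0.67 (adjusted p = 4.80e-06). In subcutaneous fat it had 69.8, 81.1 and 97.3 CPM, against 94.9, 136 and 166 CPM in the others, a log2 difference of -0.67 (adjusted p = 2.52e-09). In both depots the highest DBA/2J library reached the range of the others. In liver DBA/2J had 53.5, 58.2 and 97.0 CPM, against 64.0, 87.1 and 121 CPM in the others, a log2 difference of -0.48 (adjusted p = 0.000134), and the highest value belonged to the Vegan mouse 45 while the other 7 lay between 53.5 and 62.3 CPM.

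Cox7a2l was also higher in C57BL/6J than in the mean of the other 3, which includes DBA/2J. The log2 difference was 0.39 in brown fat (adjusted p = 1.68e-06), 0.33 in quadriceps (adjusted p = 0.0257), 0.41 in visceral fat (adjusted p = 0.00173), 0.44 in subcutaneous fat (adjusted p = 1.29e-06) and 0.27 in liver (adjusted p = 0.0202). The fall in DBA/2J was called under every setting tried in each tissue, 39 in subcutaneous fat and 40 in each of the others. The rise in C57BL/6J was called under 40 settings in brown fat, 39 in each white fat depot, 38 in liver and 33 in quadriceps. The strains other than DBA/2J overlapped with each other in every tissue. In subcutaneous fat A/J overlapped C57BL/6J and SJL through mouse 25 alone, at 140 CPM. Its next highest library was at 114 CPM, below the lowest of C57BL/6J at 132 CPM and of SJL at 129 CPM.

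**Figure D5:**
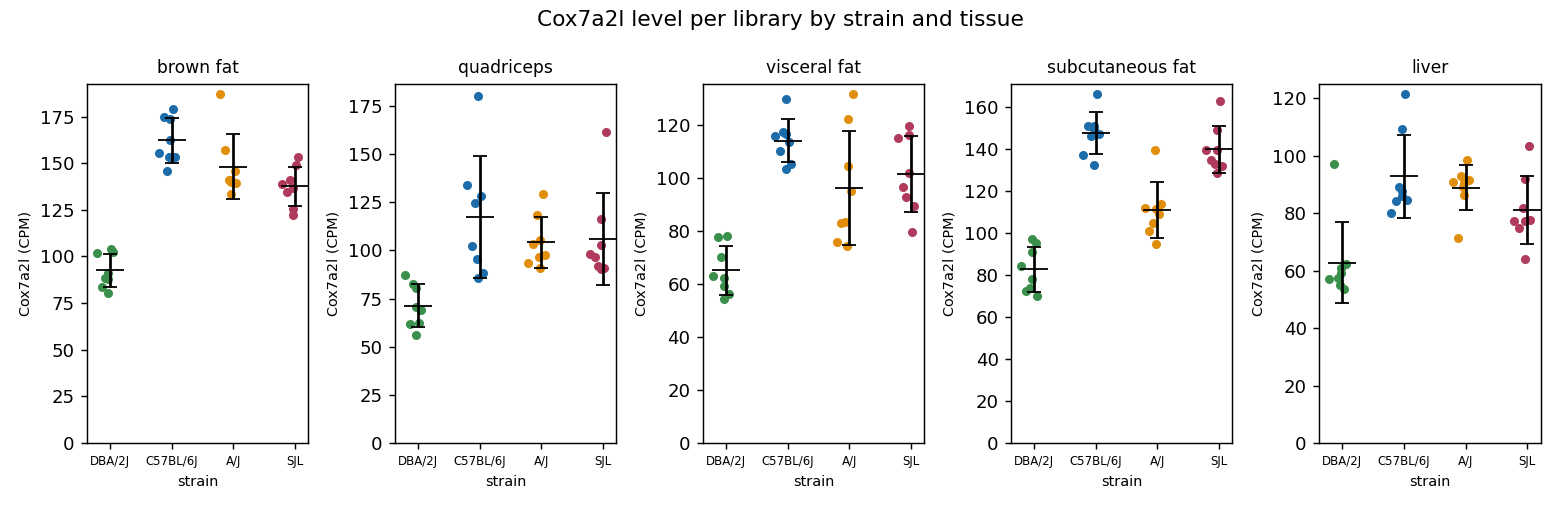
Cox7a2l level (CPM, vertical axis from 0) in each library by strain and tissue, with the mean and SD of 8 libraries. DBA/2J lies lowest in each tissue, without overlap in brown fat, where its highest library is at 104 CPM and the lowest of the others at 122 CPM.

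Diet left no respiratory chain gene called. In each of the 15 contrasts of a Mediterranean, Vegetarian or Vegan diet with the American diet, which share the American libraries, 0 of the 84 genes (83 in liver) passed the adjusted p of 0.05 by edgeR, and DESeq2 and limma on log2(TPM + 1) called 0 as well. The background was as low: of all genes, 0.104%, 0.267% and 0.0148% were called in brown fat for the Mediterranean, Vegetarian and Vegan diets, 0.145%, 0% and 0.113% in liver, and 0% in the other tissues. At an unadjusted p under 0.05, the genes numbered 4, 1 and 2 in brown fat, 13, 1 and 2 in liver, 0 in quadriceps, 0, 0 and 4 in subcutaneous fat, and 0, 0 and 1 in visceral fat, for the 3 diets in that order. In brown fat these were 4.76%, 1.19% and 2.38% of the 84, where 14.2%, 12.1% and 15.4% of all genes had such a p. In liver they were 15.7%, 1.20% and 2.41% of the 83, where 16.3%, 4.95% and 12.5% of all genes did. In subcutaneous fat the 4 on the Vegan diet were 4.76%, where 3.88% of all genes had such a p, and the background was 3.88% and 2.96% on the Mediterranean and Vegetarian diets. In visceral fat the 1 was 1.19%, where 8.10% of all genes did, and the background was 5.11% and 3.41% on the Mediterranean and Vegetarian diets. In quadriceps the background was 4.88%, 1.54% and 2.86%. The median log2 difference in Mediterranean livers was 0.15, with 74 of 83 genes above the median of all genes. This count is given for 1 of the 15 contrasts alone, and genes measured in the same libraries are not independent of each other.

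Summed TPM was also read by diet, with its spread over libraries of all 4 strains. In brown fat it was 58515 ± 6063 on the Mediterranean, 52138 ± 2849 on the Vegetarian and 56030 ± 3663 on the Vegan diet, against 54271 ± 5954 on the American diet (SD, n = 8 each). In liver it was 15799 ± 908 on the Mediterranean, 15672 ± 1466 on the Vegetarian and 15982 ± 1945 on the Vegan diet, against 15590 ± 1389 on the American diet. The differences from the American diet lay within about 1 SD, and the ranges of all 4 diets overlapped in both tissues. These SDs hold the differences between strains, which the fit takes out, so they are no test of a diet difference. The genes with the smallest p were Uqcrfs1 in brown fat on the Mediterranean diet, at 0.26 (SE 0.08, adjusted p = 0.157 by edgeR), Cox7a1 in liver on that diet, at 0.97 (SE 0.35, adjusted p = 0.189), and Atp5if1 in brown fat on the Vegan diet, at -0.31 (SE 0.11, adjusted p = 0.197).

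The interaction of strain and diet was not called for any of the genes in any tissue by edgeR, where 0.0099% of all genes were called in brown fat, 0.392% in visceral fat and 0% in the rest. DESeq2 called 4 genes in subcutaneous fat and 1 in visceral fat. At an unadjusted p under 0.05 the genes numbered 41 of 84 (48.8%) in quadriceps, where 6.82% of all genes had such a p, and 27 of 84 (32.1%) in subcutaneous fat, against 5.29% of all genes. They numbered 0 in brown fat, where 7.90% of all genes had such a p, 7 of 83 (8.43%) in liver, against 8.09% of all genes, and 8 of 84 (9.52%) in visceral fat, against 14.7% of all genes. The smallest adjusted p of the genes was 0.722 in quadriceps and 0.845 in subcutaneous fat. Each combination of strain and diet had 2 libraries, and in quadriceps 2 single libraries stood apart in the summed TPM of the chain, the C57BL/6J American mouse 1 at 43926 and the SJL Vegan mouse 64 at 52717. Their part in the interaction was not tested.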

How the data were processed

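RNA of the 160 libraries was prepared with a stranded mRNA kit, per the labels. The submitters' processing notes name FastQC, Trim Galore, HISAT2, HTSeq and GRCm39, and the series' design text says that strains other than C57BL/6J were aligned with a relaxed mismatch penalty. The authors deposited estimated counts per gene, in which 74.4% of the values above 0 were whole (within 1e-06), the rest fractional, and TPM, with gene lengths that no source here gives. Gene names came from GENCODE.

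The estimated counts were rounded and tested in R 4.3.3 with edgeR 4.0.16 (glmQLFit, robust, TMM scaling, filterByExpr with a minimum count of 10 and a minimum total of 15), within a tissue on strain and diet, and between tissues on strain, diet and tissue. Benjamini-Hochberg adjustment ran over all genes, and 0.05 was the threshold. CPM of the marker genes are counts scaled to the library total. CPM of the respiratory chain genes are counts scaled to the total of the kept genes with the TMM factor. The ± is the SD. Alternatives were DESeq2 1.42.0, limma 3.58.1 on log2(TPM + 1) above a mean of 1 TPM, another scaling, no filter on low counts, each library left out, and libraries holding transcripts of another tissue left out. Libraries with the same mouse number in different tissues come from the same animal, per the labels, which pairs the tissues. The main fit between tissues did not use this pairing. The smallest chi-square per gene between the 2 libraries of a group was 11.8, so in no group was 1 library a repeat of the other. Libraries of different groups were not compared in this way.

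The genes and lists were chosen with earlier results of these data known. Genes were named where they were a tissue isoform or its partner, among the 6 largest rises or falls called in a tissue contrast with a mean of at least 5 CPM, among the 3 largest called rises or falls of a strain, or of smallest p for a diet, or, for other lists, among the smallest adjusted p. Sdha, Uqcrc1, Atp5f1a and Atp5f1b levels, and Gabpa, Esrra and Cycs, are further examples chosen after their values were seen. One item that the rule names is not reported here.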

Additional observations from a re-analysis of the deposited data

Results flagged for a closer look

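Of 40 groups of 8 libraries (the summed TPM of the respiratory chain genes and the Cox7a2l level, in each tissue and strain), 8 held a library whose gap to its nearest neighbour, over the range of the group, passed the 95% critical value of Dixon's test, a rule that chance meets in a small share of groups. Of these, 3 were in the summed TPM. In quadriceps the C57BL/6J American mouse 1 had 43926 TPM, where its group ran from 23315 to 31698 TPM, and the SJL Vegan mouse 64 had 52717 TPM, where its group ran from 32861 to 39806 TPM. In visceral fat the A/J Mediterranean mouse 24 had 35634 TPM, where its group ran from 17437 to 24578 TPM, and that library held Ucp1 at 42.6% of the brown fat mean and Alb at 22.5% of the liver mean.

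The others were in Cox7a2l. The A/J American mouse 18 had 187 CPM in brown fat (133 to 157 in the other 7), the SJL Vegan mouse 64 had 161 CPM in quadriceps (90.2 to 116), the A/J Vegetarian mouse 25 had 140 CPM in subcutaneous fat (94.9 to 114), the A/J Vegan mouse 30 had 71.4 CPM in liver (86.3 to 98.4) and the DBA/2J Vegan mouse 45 had 97.0 CPM in liver (53.5 to 62.3).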

How the results depend on the processing

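The counts of called genes for brown fat against quadriceps, subcutaneous fat or liver and for quadriceps against liver stayed within 1.5 times under all alternatives, as did that of SJL in subcutaneous fat, and diet counts stayed at 0. With the mouse as a replicate block, 70 genes were called for brown fat against quadriceps, 84 against subcutaneous fat, 84 against liver, 82 for quadriceps against liver and 47 for visceral against subcutaneous fat, and no call of a named gene changed. On log2(TPM + 1) the counts were 15 (A/J) and 9 (DBA/2J) in brown fat, 11 (C57BL/6J) and 29 (DBA/2J) in liver, 6 (A/J), 44 (C57BL/6J) and 19 (SJL) in quadriceps, 1 (A/J) and 18 (DBA/2J) in subcutaneous fat, 8 (DBA/2J) and 0 (SJL) in visceral fat, and 14 for visceral against subcutaneous fat. DESeq2 gave 4 for A/J and 4 for the interaction in subcutaneous fat, and 2 for C57BL/6J, 2 for SJL and 1 for the interaction in visceral fat, and size factors gave 4 for A/J in subcutaneous fat. With no filter on low counts, 1 was called for C57BL/6J in quadriceps, 1 for A/J in subcutaneous fat and 32 for DBA/2J in visceral fat. Without libraries holding transcripts of another tissue, with Ucp1 used or not, 34 were called for DBA/2J and 4 for SJL in brown fat, 3 for A/J and 9 for C57BL/6J in quadriceps, and 22 for DBA/2J and 0 for SJL in visceral fat. For visceral against subcutaneous fat these gave 16 with Ucp1 and 21 without it, a setting added after the data were seen. Strains in subcutaneous fat could not be fitted in the first of these, since no SJL library remained, and against the other 2 strains 7 were called for C57BL/6J, also added later.

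With single libraries left out, counts in brown fat ran from 12 to 46 (A/J), 7 to 29 (C57BL/6J), 11 to 35 (DBA/2J) and 10 to 22 (SJL). In liver they ran from 7 to 14 (A/J), 4 to 8 (C57BL/6J), 6 to 33 (DBA/2J) and 22 to 53 (SJL), and in quadriceps from 0 to 5 (A/J), 2 to 7 (C57BL/6J), 2 to 3 (DBA/2J) and 4 to 12 (SJL). In subcutaneous fat they ran from 1 to 14 (A/J), 47 to 69 (C57BL/6J), 9 to 18 (DBA/2J) and 74 to 79 (SJL), and in visceral fat from 0 to 1 (A/J), 1 to 2 (C57BL/6J), 24 to 62 (DBA/2J) and 0 to 18 (SJL).

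Differences of single genes turned on log2(TPM + 1) for Atp5mc2 between the white depots (-0.032), for Atp5mc3 (-0.65), Cox4i2 (-0.50), Cox7a2l (-0.11) and Ndufa4l2 (-0.61) in brown against subcutaneous fat, for Ndufa4l2 in brown fat against quadriceps (0.042) and for Cox7a2 in quadriceps against liver (0.19). Without the libraries named above, Cox7a2 was at 0.010 there and Cox7a1 at 0.32 between the white depots. The cause was not tested. Each combination of strain and diet had 2 libraries, which limits the interaction, and depth was 18.0 M counts or more in every library.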
